A study of Mus musculus with 4 samples.

Results

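The plasma cell program genes described here are 10 genes, Prdm1, Xbp1, Igj, Sdc1, Mzb1, Ell2, Creb3l2, Slamf7, Derl3 and Fkbp11, chosen by name from the 20599 gene symbols that were quantified. All 10 had an entry in the files, and 10 of 10 had enough counts to be tested, as did 12078 genes in all. Expression was measured by RNA-Seq in peritoneal B1a cells (n = 2 libraries) and splenic follicular B2 cells (n = 2 libraries), both from untreated wild-type C57BL/6 mice. The labels give total RNA from which ribosomal RNA was removed, whereas the study's discussion speaks of enriched polyadenylated RNA, and which of these holds could not be settled here. B1a cells were sorted with a gate that included CD23- IgM+ CD5+ and follicular B2 cells with a gate that included IgD hi IgM lo CD21+, and neither gate used syndecan-1 (Sdc1) or Slamf7. The labels give an age of 4 weeks for all 4 libraries, whereas the methods give an older age for the B2 donors, so differences between the groups may come with cell type, tissue or age, which cannot be told apart. The methods name 2 control mice for each cell type, so the replicates are taken as separate animals and the p-values measure the spread between them, although the labels do not tie a library to a mouse. In bulk RNA, fewer cells of a type and less RNA per cell cannot be told apart, and this holds for every level given here.

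Plasma cells are B cells that have stopped dividing and secrete antibody. In the usual account, the repressor BLIMP1 (Prdm1) shuts down the B cell program, the transcription factor XBP1 enlarges the secretory apparatus, and a large set of endoplasmic reticulum (ER) proteins then folds, assembles and exports immunoglobulin. Much of the IgM in serum that is present without immunization comes from B1 cells. A follicular B2 cell carries its antibody on the surface and becomes a secreting cell after it meets antigen, usually with help from T cells.

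XBP1 is made in its active form only after an unusual splicing step. When unfolded protein accumulates in the ER, the sensor IRE1 (Ern1) cuts a short segment out of the Xbp1 RNA in the cytoplasm, which shifts the reading frame and adds the transactivating end of the protein. The segment is shown because the share of transcripts that had lost it was estimated here from deposited gene lengths. It lies in exon 4 of 5 of Xbp1, within the coding sequence, at chr11:5524279-5524304 on the plus strand of GRCm38, the assembly also called mm10. In the stretch chr11:5524255-5524328, taken from the GENCODE transcript, the 26 bases that are removed are in capitals. The reading frame ended after 267 codons in the unspliced form and after 371 codons once the segment was removed.
Xbp1 unspliced: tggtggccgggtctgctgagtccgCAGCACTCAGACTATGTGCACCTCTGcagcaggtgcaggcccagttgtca
Xbp1 spliced: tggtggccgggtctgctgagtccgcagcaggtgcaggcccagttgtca

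Each library held between 11032732 and 18588623 counts in all. A floor of 3 counts, below which a gene was not separated from no expression, equals 0.161 to 0.272 CPM at these depths. Counting error alone is covered by this floor and by intervals on counts, because PCR copies of a molecule were not marked. Levels are given as CPM, counts scaled to a common library size with TMM factors, and as TPM, which is also divided by transcript length and is the scale on which different genes are compared. Replicates correlated at 0.836 in B1a and 0.966 in B2 over log2 CPM, and a gap from at least 100 counts in one replicate to 3 or fewer in the other was found for 200 genes in B1a and for 4 in B2. Both B1a libraries held the B1a marker genes (5 genes summing to 893 and 1182 CPM, against 75.3 and 75.8 CPM in B2), and both B2 libraries held the 2 follicular markers Fcer2a and Cr2 (1902 and 1942 CPM, against 153 and 162 CPM in B1a). The files list 0 immunoglobulin chain genes, so the antibody transcripts themselves were not analysed here.

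Part of the plasma cell program was higher in B1a cells, and for the rest no difference was called. Creb3l2, Prdm1 and Mzb1 were higher in B1a cells by 8.93-fold, 7.06-fold and 3.37-fold, and these 3 of 10 genes passed edgeR's quasi-likelihood test after Benjamini-Hochberg adjustment over all tested genes, while 4.24% of all tested genes were called higher in B1a. No member was called higher in B2 (0 of 10 with edgeR, 0 at an unadjusted p under 0.05, and 0 with DESeq2 or limma-voom), where 1.5% of all tested genes were called. Xbp1 and Ell2, a transcription factor and an elongation factor of the program, overlapped between the cell types. Both B1a libraries lay above both B2 libraries for 5 members, Prdm1, Mzb1, Creb3l2, Derl3 and Fkbp11, a pattern seen in 25.3% of all tested genes. Both lay below for 1 member, Sdc1, against 29.1% of all tested genes, and the groups overlapped for the other 4. The median log2 fold change, B1a over B2, was 0.86 over the members and -0.03 over all tested genes.

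**Figure D1:**
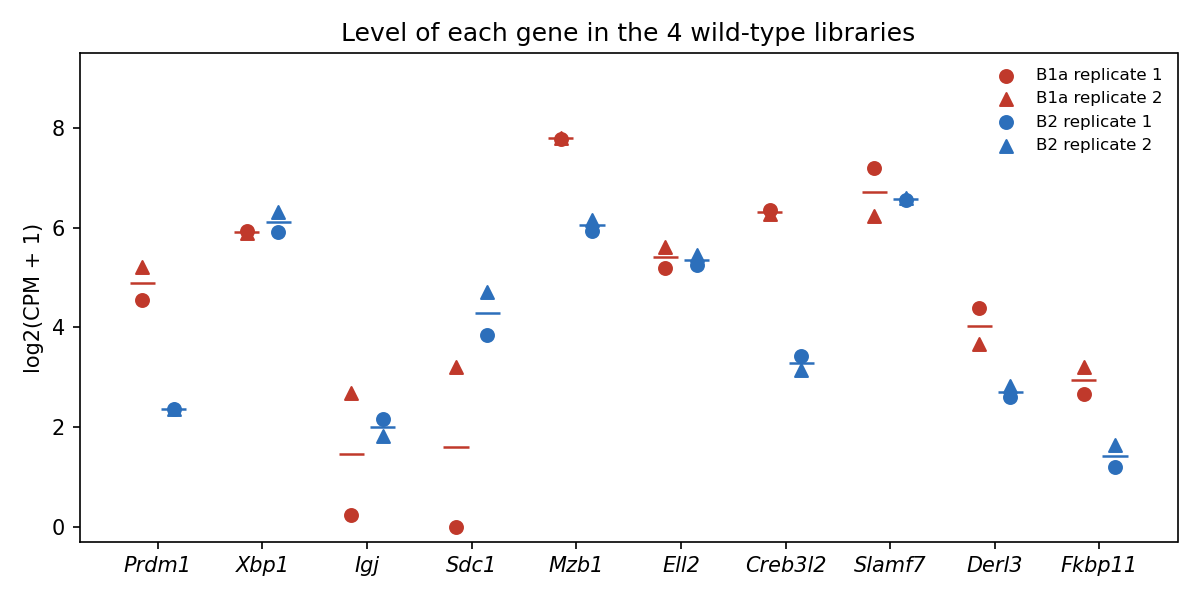
Level of the 10 genes in each library, as log2(CPM + 1), with B1a libraries in red, B2 libraries in blue, circles for replicate 1, triangles for replicate 2 and short lines at the group means (n = 2). Prdm1, Mzb1, Creb3l2, Derl3 and Fkbp11 are separated with B1a on top, Sdc1 with B2 on top, and Igj and Sdc1 have 1 B1a library at or near 0.

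Among the regulators, Prdm1 (chr10:44437177-44528501, minus strand) encodes BLIMP1, the repressor that is required for full antibody secretion. It measured 22.4 and 36.2 CPM in the B1a libraries and 4.16 and 4.13 CPM in the B2 libraries. The B2 libraries were almost equal, and the lower B1a library was still above both. B1a exceeded B2 by a log2 fold change of 2.82 (SE 0.51, 95% interval 1.56 to 4.08; adjusted p = 0.0346 by edgeR's quasi-likelihood test). The call rests on a narrow margin, since Prdm1 passed in 7 of 10 other analyses and not with limma-voom (adjusted p = 0.0554) or with limma on either TPM scale (adjusted p = 0.107 and 0.13). The call was also lost when B2 replicate 1 or B2 replicate 2 was left out, although the log2 fold changes were 2.82 and 2.81. Those fits take their spread from the B1a pair alone, and other genes lost their calls in them too. Per unit of transcript length Prdm1 was a minor member, at 10.1 and 15.9 TPM in B1a and at 2.20 and 2.15 TPM in B2, where it ranked last of the 10.

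Creb3l2 (chr6:37327255-37442146, minus strand) encodes a transcription factor that sits in the ER membrane and is cut free by proteolysis, after which it acts on genes of the secretory pathway. It measured 80.6 and 76.7 CPM in B1a and 9.80 and 7.84 CPM in B2. Replicates were close in both cell types and the groups were far apart. Its log2 fold change of 3.16 (SE 0.28, 95% interval 2.46 to 3.86) had the smallest p of the members (adjusted p = 0.00419 by edgeR's quasi-likelihood test). It passed in 10 of 10 other analyses and in all 4 fits that left out a library.

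Among the relatives of Creb3l2, 1 was called. Atf6, which encodes another membrane-bound factor of the ER stress response, was higher in B1a (449 and 379 CPM against 154 and 177 CPM; log2 fold change 1.32, SE 0.15, adjusted p = 0.00833 by edgeR's quasi-likelihood test). Its paralog Atf6b overlapped between the groups (71.2 and 114 CPM in B1a, 83.4 and 77.7 CPM in B2). Creb3 had 2.15 and 39.0 CPM in the B1a libraries and 26.9 and 33.1 CPM in the B2 libraries, so its B1a replicates spanned the B2 values. Of the 6 genes of this family that were listed, 4 were tested and 1 was called, beside 4.24% of all tested genes called higher in B1a. Creb3l1, Creb3l3 and Creb3l4 stayed at or below 1.41 CPM in every library.

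Xbp1 (chr11:5520659-5525893, plus strand) measured 60.2 and 58.7 CPM in B1a and 59.3 and 78.6 CPM in B2. The groups overlapped and B2 replicate 2 had the highest value. The log2 fold change was -0.21 (SE 0.24, adjusted p = 0.692 by edgeR's quasi-likelihood test), and its 95% interval of -0.79 to 0.37 leaves room for a modest difference in either direction. The total level of Xbp1 RNA therefore did not separate the cell types at this depth and spread.

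The isoform estimate gave a different picture from the total. RSEM reports for each gene a length that is weighted by the estimated share of its transcripts, and the Xbp1 entry lists 2 transcripts. The weighted length was 2221 bases in both B1a libraries, 2247 bases in B2 replicate 1 and 2231 bases in B2 replicate 2. The shortest and longest values differ by 26 bases and were taken as the spliced and unspliced transcripts. The segment shown above was found by a search for 2 IRE1-type cut sites that far apart, with a longer reading frame after removal. Its size is therefore no separate check. The lengths of the 2 listed transcripts were not looked up, so the libraries themselves set the ends of the scale at 100% and 0%. On this reading the spliced share was 100% in both B1a libraries, 0% in B2 replicate 1 and 60.0% in B2 replicate 2. The B1a libraries were alike and higher, but the B2 libraries differed widely from each other, and the values are a description with no test.

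Few reads can bear on that share. Suppose that reads were spread evenly and that all transcripts kept the segment. Then 31.1 and 30.3 reads in the B1a libraries and 31.3 and 69.3 reads in the B2 libraries would touch it. Where the segment had been lost, only reads across the new junction bear on the share, and these would be fewer. The actual number of such reads is not given by gene-level values, so no interval was attached. The effective lengths, which RSEM corrects for read length, gave the same 4 shares. They carry the same isoform weights as the lengths, so this is not a separate check. Ern1, the gene of IRE1, measured 31.6 and 16.5 CPM in B1a and 16.0 and 11.6 CPM in B2. Both B1a libraries were higher, though the lower one exceeded the B2 values by little (log2 fold change 0.80, SE 0.50, adjusted p = 0.446 by edgeR's quasi-likelihood test).

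**Figure D2:**
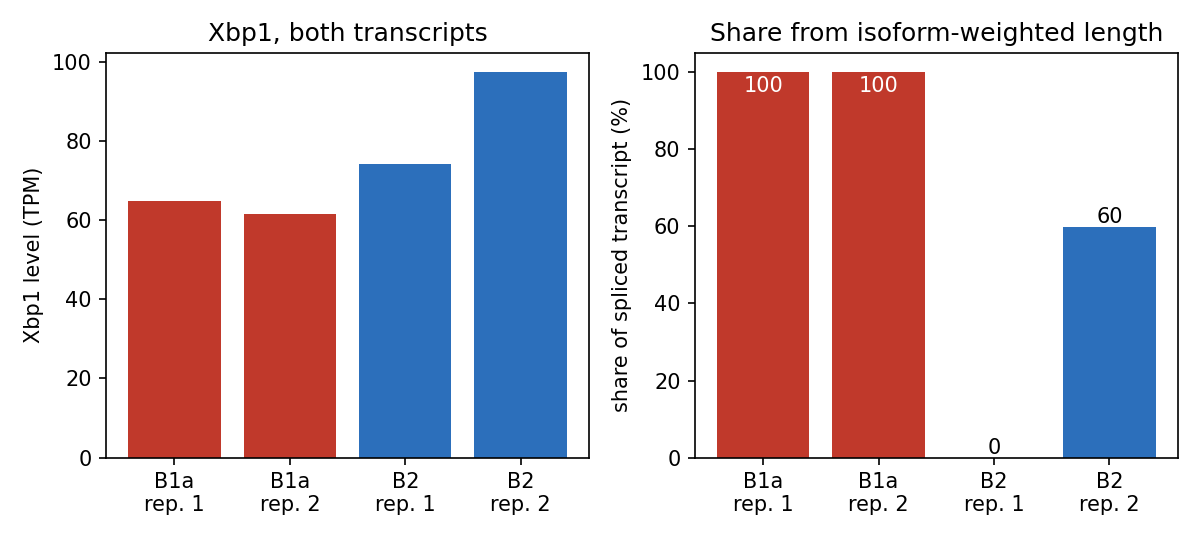
Xbp1 in each library, with the level of both transcripts together in TPM on the left and the share of the spliced transcript, in percent, derived from the isoform-weighted length on the right. B1a libraries (red) stand at 61.6 and 64.8 TPM and at 100%, and B2 libraries (blue) at 74.1 and 97.3 TPM and at 0% and 60.0%; each bar is 1 library.

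Ell2 (chr13:75706757-75772364, plus strand) encodes a transcription elongation factor that favors the secreted over the membrane form of the immunoglobulin heavy chain RNA. It measured 35.8 and 47.7 CPM in B1a and 37.1 and 42.9 CPM in B2. Both B2 values fell between the B1a values. A log2 fold change of 0.06 was fitted (SE 0.29, 95% interval -0.64 to 0.76, adjusted p = 0.937 by edgeR's quasi-likelihood test). An antisense gene, an intronic transcript and a small nucleolar RNA gene overlap Ell2 in the annotation, and the strand setting of the counting is not given in the sources used here, so reads of the antisense gene cannot be told apart from those of Ell2.

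Of the 8 genes listed for the ELL elongation complex, all 8 were tested and 1 was called. Over all tested genes 4.24% were called higher in B1a. The median log2 fold change was -0.24 over these 8 genes and -0.03 over all tested genes. Aff1, a scaffold of that complex, was higher in B1a (656 and 593 CPM against 394 and 419 CPM; log2 fold change 0.62, SE 0.12, adjusted p = 0.0385 by edgeR's quasi-likelihood test). The paralog Ell3 had 10.96 and 14.7 CPM in B1a and 37.6 and 33.8 CPM in B2, with no overlap, and missed the threshold (log2 fold change -1.47, adjusted p = 0.0923 by edgeR).

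Among the genes of the secretory apparatus, Mzb1 (chromosome 18, minus strand) encodes an ER chaperone that binds immunoglobulin heavy chains and is typical of B1 and marginal zone B cells as well as plasma cells. It measured 219 and 221 CPM in B1a and 60.4 and 70.2 CPM in B2. The B1a libraries were nearly identical and stood well clear of B2. This amounted to a log2 fold change of 1.75 (SE 0.16, 95% interval 1.36 to 2.15; adjusted p = 0.00432 by edgeR's quasi-likelihood test), and it passed in 10 of 10 other analyses and in all 4 fits with a library left out. The neighboring gene Spata24 overlaps Mzb1 on the same strand and had 0 and 37.0 counts in B1a and 61.0 and 62.0 counts in B2, against 2438 and 2460 counts and 696 and 1342 counts for Mzb1.

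Mzb1 had the highest TPM of the 10 genes in every library, at 606 and 598 TPM in B1a and 197 and 225 TPM in B2. It therefore weighed heavily in any sum over the program. The members summed to 588 and 548 CPM in B1a and to 287 and 335 CPM in B2, and to 370 and 327 CPM against 227 and 265 CPM once Mzb1 was left out. B1a remained above B2 on both sums. The gap without Mzb1 rested largely on Creb3l2, at 80.6 and 76.7 CPM in B1a and 9.80 and 7.84 CPM in B2. With Creb3l2 also left out, the sums of the groups overlap.

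Derl3 (chr10:75893413-75895941, plus strand) encodes a Derlin, part of the machinery that draws misfolded proteins out of the ER for degradation. It measured 19.8 and 11.7 CPM in B1a and 5.06 and 6.12 CPM in B2. Both B1a libraries were above both B2 libraries, but they also differed from each other. A log2 fold change of 1.50 missed the threshold (SE 0.65, 95% interval -0.10 to 3.09, adjusted p = 0.269 by edgeR's quasi-likelihood test), and it passed in 0 of 10 other analyses. Without B1a replicate 2 it was called, with a log2 fold change of 1.82 (edgeR adjusted p = 0.000121).

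The other Derlins are expressed in most cells and neither was called. Derl1 had 154 and 136 CPM in B1a and 91.8 and 93.4 CPM in B2 (log2 fold change 0.64, SE 0.16, adjusted p = 0.091 by edgeR's quasi-likelihood test). Derl2 had 2.60 and 47.9 CPM in the B1a libraries and 38.5 and 43.3 CPM in the B2 libraries, and so was nearly missing from B1a replicate 1 alone.

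Fkbp11 (chr15:98724366-98728198, minus strand) encodes a peptidyl-prolyl isomerase of the ER that is abundant in secretory cells. It measured 5.38 and 8.27 CPM in B1a and 1.30 and 2.14 CPM in B2, from 60 and 92 counts and from 15 and 41 counts. B1a was higher in both libraries, at low counts throughout. The fitted log2 fold change of 1.98 had a wide interval (SE 1.09, 95% interval -0.69 to 4.65, adjusted p = 0.384 by edgeR's quasi-likelihood test), and it passed in 0 of 10 other analyses. Without B1a replicate 1 it was called, with a log2 fold change of 2.24 (edgeR adjusted p = 0.023). Of 5 other FK506-binding proteins of the ER that were listed, 3 were tested and 0 were called by edgeR, with the same count of 0 in DESeq2 and limma-voom and at an unadjusted p under 0.05.

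Igj, now named Jchain (chr5:88519809-88527891, minus strand), encodes the joining chain that links IgM pentamers and IgA dimers. It measured 0.18 and 5.40 CPM in the B1a libraries and 3.47 and 2.56 CPM in the B2 libraries, from 2, 60, 40 and 49 counts. The B1a replicates lay on either side of both B2 libraries, and B1a replicate 1 was under the floor of 3 counts. The log2 fold change of -0.11 had a 95% interval of -4.20 to 3.98 (SE 1.67, adjusted p = 0.980 by edgeR's quasi-likelihood test), so neither its direction nor its size could be told at this spread. Its sign turned with the library left out, from 0.84 without B1a replicate 1 (edgeR adjusted p = 0.464) to a call of lower in B1a without B1a replicate 2 (edgeR adjusted p = 0.0335).

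Among the surface proteins, Sdc1 (chr12:8771323-8793715, plus strand) encodes syndecan-1 or CD138, the proteoglycan by which plasma cells are usually sorted. It measured 0 and 8.27 CPM in the B1a libraries and 13.4 and 25.2 CPM in the B2 libraries, from 0, 92, 155 and 483 counts. It was the only member with both B2 libraries above both B1a libraries, and B1a replicate 1 had no count. For that library, counting error alone allows up to 0.332 CPM (upper end of a 95% interval on the count, scaled by library total only). The spread between the B1a replicates is not covered by that limit. The log2 fold change was -2.22 (SE 1.69, 95% interval -6.38 to 1.94, adjusted p = 0.543 by edgeR's quasi-likelihood test). Leaving out B1a replicate 1 gave a smaller difference that was called, -1.23 (edgeR adjusted p = 0.00596), and leaving out B1a replicate 2 left B1a with no count at all and gave a call in the same direction (edgeR adjusted p = 1.13e-22). Of the other syndecans, Sdc4 was higher in B2 (85.2 and 68.5 CPM in B1a, 153 and 143 CPM in B2; log2 fold change -0.95, SE 0.19, adjusted p = 0.0437 by edgeR's quasi-likelihood test), and Sdc3 was not called.

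Slamf7 (chr1:171632403-171653035, minus strand) encodes CS1 or CD319, a SLAM family receptor of plasma cells and NK cells. It measured 145 and 74.0 CPM in the B1a libraries and 93.1 and 95.2 CPM in the B2 libraries. The B1a replicates differed widely and enclosed both B2 values. Between the groups the log2 fold change was 0.22 (SE 0.33, 95% interval -0.58 to 1.02, adjusted p = 0.786 by edgeR's quasi-likelihood test). It was -0.35 without B1a replicate 1 (edgeR adjusted p = 0.175) and 0.63 and called without B1a replicate 2 (edgeR adjusted p = 0.00131). An antisense gene overlaps Slamf7 in the annotation and cannot be told apart without the strand. Within the SLAM family, Slamf1 was far lower in B1a (2.24 and 3.78 CPM against 53.7 and 71.1 CPM; log2 fold change -4.37, SE 0.43, adjusted p = 0.005 by edgeR's quasi-likelihood test). It was the 1 gene called of 7 tested and 9 listed, beside 1.5% of all tested genes called higher in B2.

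Fits without 1 B1a library need care, because the lone B1a library is then assumed to vary like the B2 libraries. Without B1a replicate 1, 31.0% of all genes tested were called, and without B1a replicate 2, 48.9% were. The calls of Derl3, Fkbp11, Igj, Sdc1 and Slamf7 in those fits stand against these shares.

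**Figure D3:**
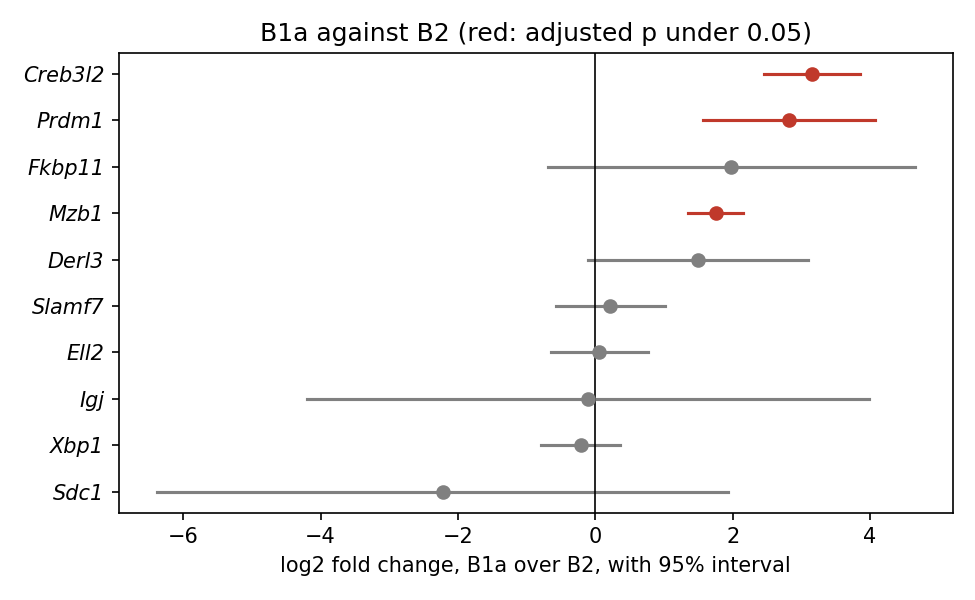
Log2 fold change, B1a over B2, of each gene with its 95% interval from edgeR's quasi-likelihood fit, sorted by size, with genes past an adjusted p of 0.05 in red and the others in grey. Creb3l2, Prdm1 and Mzb1 clear 0, and the widest intervals belong to Sdc1 (-6.38 to 1.94) and Igj (-4.20 to 3.98).

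The spread between replicates was uneven over the program. The log2 ratio of replicate 2 to replicate 1 in B1a was 4.13 for Sdc1 and 3.12 for Igj, taken as log2 of CPM plus 0.5, and 1.7% and 5.2% of all tested genes differed by as much or more. Slamf7 and Derl3 went the other way, at -0.97 and -0.74. Mzb1, Xbp1 and Creb3l2 were steady, at 0.02, -0.04 and -0.07. The median absolute ratio over the members was 0.63 in B1a and 0.28 in B2, beside 0.52 and 0.21 over all tested genes, so the members varied between replicates about as other genes did and more in B1a than in B2. Within B1a, then, no single library was the one with more of the program: replicate 2 had more Prdm1, Igj, Sdc1, Ell2 and Fkbp11, and replicate 1 had more Slamf7 and Derl3.

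**Figure D4:**
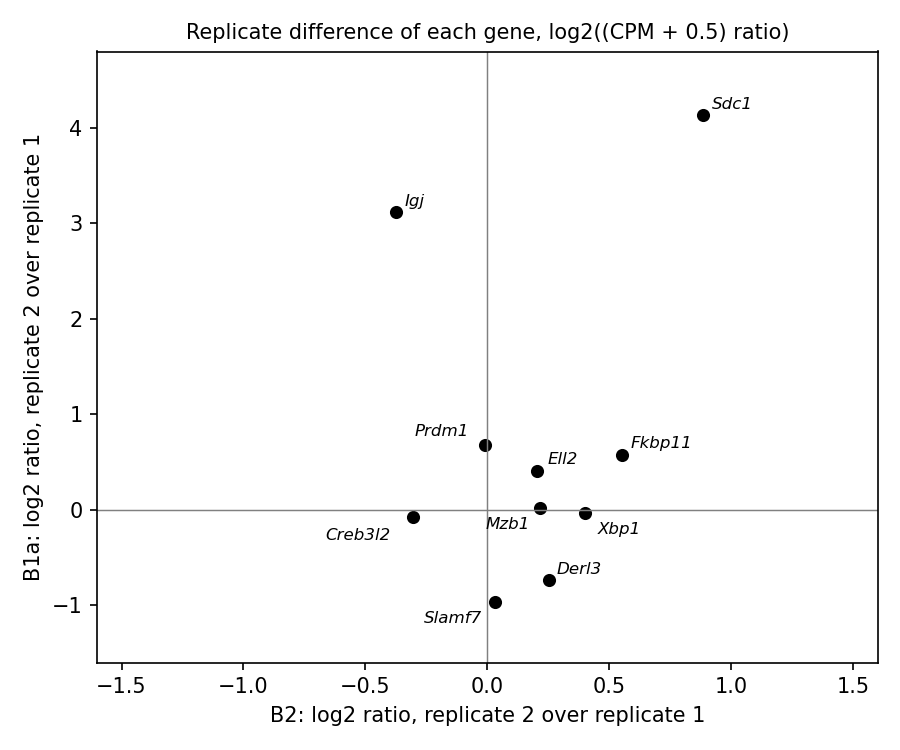
Log2 ratio of replicate 2 to replicate 1 for each gene, from CPM plus 0.5, in B2 libraries (horizontal axis) and in B1a libraries (vertical axis); each point is 1 gene. Sdc1 and Igj stand apart at 4.13 and 3.12 in B1a, while the other genes lie between -0.97 and 0.68.

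On the TPM scale, which allows genes to be compared, the order in B1a was led by Mzb1 (602 ± 5.46 TPM; mean ± SD, n = 2 here and below). Slamf7 (64.3 ± 30.6 TPM), Xbp1 (63.2 ± 2.25 TPM) and Creb3l2 (55.3 ± 2.91 TPM) followed, and the Slamf7 replicates spanned the values of the other two. Derl3 (28.5 ± 10.9 TPM), Ell2 (26.55 ± 4.92 TPM) and Fkbp11 (23.4 ± 6.63 TPM) came next and did not differ beyond their spread. Prdm1 (13.0 ± 4.12 TPM), Sdc1 (3.12 ± 4.41 TPM) and Igj (3.1 ± 4.09 TPM) were lowest.

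In B2 the order was Mzb1 (211 ± 20.03 TPM), Xbp1 (85.7 ± 16.4 TPM), Slamf7 (64.95 ± 0.297 TPM), Ell2 (30.1 ± 2.73 TPM) and Sdc1 (17.4 ± 7.34 TPM). Derl3 (11.9 ± 1.46 TPM), Creb3l2 (7.33 ± 1.23 TPM), Fkbp11 (6.99 ± 2.35 TPM), Igj (4.0 ± 0.898 TPM) and Prdm1 (2.175 ± 0.0354 TPM) completed it. Creb3l2 and Fkbp11 were within their spread of each other. Creb3l2 stood beside Xbp1 and Slamf7 in B1a cells and beside Fkbp11 in B2 cells.

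Other genes of antibody-secreting cells were likewise divided. Of 30 listed genes, 27 were tested, 3 were called higher in B1a and 1 higher in B2, beside 4.24% and 1.5% of all tested genes, and their median log2 fold change was 0.51. The count higher in B1a depended on the analysis, with 11 genes by DESeq2, 9 by limma-voom with cell-type weights and 7 with no filter. Over all tested genes, those fits called 1004 of 12078, 1054 of 12078 and 779 of 14730 higher in B1a. The main fit called 512 of 12078 higher in B1a. Zbtb20, a transcription factor that sustains long-lived plasma cells, had 246 and 212 CPM in B1a and 58.9 and 62.6 CPM in B2 (log2 fold change 1.91, SE 0.16, adjusted p = 0.00362 by edgeR's quasi-likelihood test). Pdia4, a disulfide isomerase of the ER, had 760 and 586 CPM in B1a and 186 and 235 CPM in B2 (log2 fold change 1.68, SE 0.19, edgeR adjusted p = 0.00742). Dnajb9, a co-chaperone of BiP, had 62.7 and 78.4 CPM in B1a and 21.9 and 26.9 CPM in B2 (log2 fold change 1.53, SE 0.27, edgeR adjusted p = 0.0324). In all 3 genes both B1a libraries lay above both B2 libraries, a pattern seen in 25.3% of all tested genes.

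Cxcr4, the chemokine receptor that brings plasma cells to the bone marrow, was higher in B2, with 94.2 and 146 CPM in B1a and 315 and 448 CPM in B2 (log2 fold change -1.67, SE 0.27, edgeR adjusted p = 0.0254). The remaining 23 tested genes were not called. Among them Irf4, the factor that acts with BLIMP1, had 355 and 530 CPM in B1a and 263 and 274 CPM in B2 (log2 fold change 0.72, adjusted p = 0.119 by edgeR). Hspa5, which encodes the ER chaperone BiP, had 302 and 434 CPM in B1a and 314 and 401 CPM in B2 and overlapped (adjusted p = 0.944 by edgeR). Tnfrsf17, the plasma cell survival receptor BCMA, had 0 counts in all 4 libraries. Cd28 had 0 counts in both B1a libraries and 1.39 and 3.78 CPM in B2, and moving it to the bound set by 3 counts in each library left the median of the list at 0.51.

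Several B cell genes that are turned down as plasma cells form were lower in B1a cells. Of 18 listed genes, 17 were tested, and 7 were called higher in B2 and 2 higher in B1a. Over all tested genes 1.5% were called higher in B2 and 4.24% higher in B1a. The median log2 fold change was -0.44 over the list and -0.03 over all tested genes. Bach2, a repressor that restrains Prdm1 in B cells, had 170 and 180 CPM in B1a and 729 and 744 CPM in B2 (log2 fold change -2.07, SE 0.11, adjusted p = 0.0013 by edgeR's quasi-likelihood test). Bcl6, the germinal center repressor that opposes Prdm1, had 43.8 and 15.9 CPM in B1a and 143 and 159 CPM in B2 (log2 fold change -2.34, SE 0.47, edgeR adjusted p = 0.0469). Pax5, which maintains B cell identity, had 268 and 265 CPM in B1a and 501 and 492 CPM in B2 (log2 fold change -0.90, SE 0.11, edgeR adjusted p = 0.01). In these 3 genes, which act against the plasma cell program, both B1a libraries lay below both B2 libraries. That pattern was seen in 29.1% of all tested genes, and also in genes of the list that were not called.

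The other 4 genes called higher in B2 were Irf8, Ciita, Ebf1 and Cd22. Irf8, a transcription factor of germinal center and follicular B cells, and Ciita, which drives MHC class II genes and is a target of BLIMP1, had log2 fold changes of -1.84 and -1.56 (edgeR adjusted p = 0.00236 and 0.00535). The early B cell factor Ebf1 and the inhibitory receptor Cd22 had log2 fold changes of -0.58 and -0.89 (edgeR adjusted p = 0.0431 and 0.0417). The class II genes H2-Aa and H2-Ab1 were not called, with H2-Aa at 2222 and 2347 CPM in B1a and 2436 and 2266 CPM in B2, and H2-Ab1 at 1807 and 1695 CPM in B1a and 1888 and 1676 CPM in B2.

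The 2 genes of that list called higher in B1a were Myc and Ms4a1. Myc, a driver of growth and division that BLIMP1 represses, had 363 and 456 CPM in B1a and 87.0 and 109 CPM in B2 (log2 fold change 2.06, SE 0.19, adjusted p = 0.0042 by edgeR's quasi-likelihood test). Ms4a1, the gene of the B cell antigen CD20, had 1159 and 1079 CPM in B1a and 615 and 733 CPM in B2 (log2 fold change 0.73, SE 0.13, edgeR adjusted p = 0.0299). Both genes are low in plasma cells, and both were present at high levels in the B1a libraries beside the higher Prdm1.

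**Figure D5:**
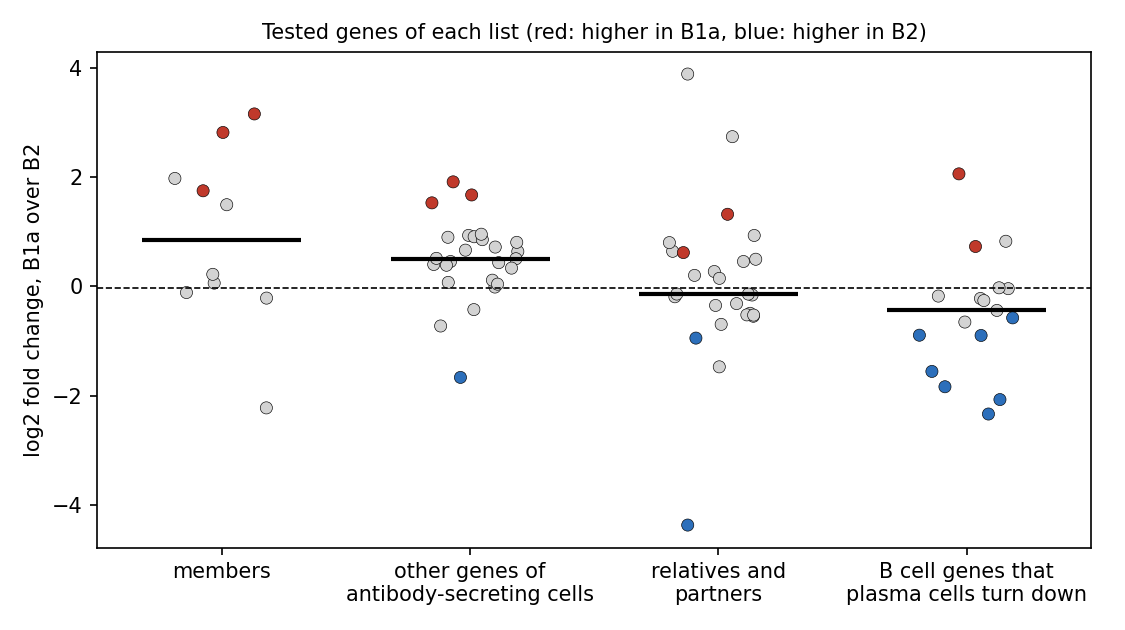
Log2 fold change, B1a over B2, of the tested genes of each list, with each gene as a point (red, called higher in B1a; blue, called higher in B2; grey, not called), the list median as a thick line and the median of all tested genes as a dashed line. Medians were 0.86 for the 10 members, 0.51 for the other genes of antibody-secreting cells, -0.14 for the relatives and partners and -0.44 for the B cell genes that plasma cells turn down; Cd28 and Creb3l4, with no count in B1a, are left out of the points.

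Markers of other cell types moved with the groups in part. The 12 macrophage markers summed to 240 and 275 CPM in B1a and to 72.7 and 77.0 CPM in B2. Both B1a libraries lay above both B2 libraries for 7 of them, Emr1 (the gene of F4/80), Lyz2, Cd68, Cd14, C1qa, C1qb and C1qc, and the other 5 overlapped. Of all tested genes, 25.3% had both B1a libraries above both B2 libraries. The 9 that were tested had a median log2 fold change of 1.72, and 1 was called, Lyz2 (127 and 136 CPM in B1a, 16.8 and 27.2 CPM in B2; log2 fold change 2.57, edgeR adjusted p = 0.00764). Over all tested genes the median was -0.03, and 4.24% were called higher in B1a. Emr1 had 27.7 and 39.0 CPM in B1a and 8.24 and 11.9 CPM in B2 (edgeR adjusted p = 0.0891). Gata6, Fcgr1 and Timd4 stayed at or below 0.54 CPM in every library, and Csf1r and Mertk overlapped. Prdm1 is also expressed in macrophages, and the part of such cells in the higher Prdm1, Mzb1 and Creb3l2 of the B1a libraries was not tested. The 3 mast cell markers summed to 19.2 and 8.72 CPM in B1a and to at most 1.48 CPM in B2, the 3 plasmacytoid dendritic cell markers to 26.6 and 53.4 CPM and to 23.2 and 16.8 CPM, and the 4 NK cell markers to 0 CPM in B1a and to at most 3.09 CPM in B2. The 6 T cell markers overlapped between the groups (68.8 to 108 CPM in B1a, 79.3 to 82.8 CPM in B2). The 5 globin and heme genes of red blood cells summed to 78.8 and 504 CPM in B1a and to 36.1 and 80.8 CPM in B2, and 1 of them, Hba-a2, was called higher in B1a (35.6 and 96.6 CPM against 5.05 and 7.46 CPM; log2 fold change 3.39, edgeR adjusted p = 0.0278).

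The promoters of the members were searched for short motifs of the factors discussed here, in RefSeq windows (GRCm38.p6) running from 250 bases before to 50 bases after each annotated start, on both strands. Of the 10 genes, 9 matched an entry, in 10 windows, and Mzb1 did not. The ER stress element, in which CCAAT and CCACG lie 9 bases apart, was found in 0.119% of all 32851 windows and in 1 member, Derl3. The XBP1 core TGACGTGG was found in 0.676% of all windows and in no member window (0 of 10). TGACGT, the core recognized by factors of the CREB and ATF families and contained in the XBP1 core, was found in 7.51% of all windows and in Creb3l2, Ell2 and Fkbp11. GAAAGT, the core bound by BLIMP1, was found in 14.3% of all windows and in Slamf7.

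The stretches of Derl3 and Creb3l2 are shown because these genes had the members' clearest match and largest fold change. The Derl3 stretch is chr10:75893212-75893290 on the plus strand, and the capitals mark the ER stress element, which reads on the opposite strand and begins 156 bases before the start. The Creb3l2 stretch is chr6:37442309-37442374 on the minus strand, and the capitals mark TGACGT, 196 bases before the start. A match describes these letters and does not show that a factor binds there.
Derl3 promoter: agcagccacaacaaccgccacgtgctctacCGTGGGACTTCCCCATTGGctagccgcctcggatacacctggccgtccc
Creb3l2 promoter: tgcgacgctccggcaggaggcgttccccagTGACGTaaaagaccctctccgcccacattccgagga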

How the data were processed

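RNA-Seq of peritoneal B1a cells (n = 2) and splenic follicular B2 cells (n = 2) from wild-type mice was analyzed, and the Dnmt3a-deficient libraries were not analysed here. The authors used RSEM with RefSeq genes on mm10, named as version 1.2.29 in the submitters' processing notes and differently in the paper's methods. They deposited an unnormalized expected count for each of 21970 entries, with reads of several possible origins split between entries, and TPM scaled within each library. A deposited signal column, the posterior SD of each count, was checked for the members only.

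Entries of a symbol were added up and rounded to whole counts. After filterByExpr and TMM scaling (factors 0.963 to 1.05), edgeR 4.0.16 in R 4.3.3 was used for a quasi-likelihood test with Benjamini-Hochberg adjustment over all 12078 tested genes and a threshold of 0.05. EBSeq, named in the methods, was not run. The biological coefficient of variation was 0.507. Library totals are given above, and depth limits genes near 3 counts. Standard errors came from the F statistic. Alternatives were DESeq2 1.42.0, upper quartile factors, limma-voom (limma 3.58.1) with and without a weight for each cell type, a filter of 10 counts in every library, no filter, limma on log2(TPM + 1) and log2(TPM + 0.1), entries without summing, a replicate block, and each library left out.

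The members, the gene lists and the tests were chosen with earlier results of these data known. The text gives all 10 members, each called gene of a list up to 8 a list, relatives of a member, and marker sums; Irf4, Hspa5, Tnfrsf17, Cd28, H2-Aa and H2-Ab1 were named after their values were seen. Positions came from GENCODE vM21 (GRCm38), promoters from RefSeq.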

Additional observations from a re-analysis of the deposited data

How the results depend on the processing

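Mzb1 and Creb3l2 were called higher in B1a under all 10 alternatives and all 4 fits that left out a library, and Prdm1 under 7 and 2 of them. The count of all called genes was 693, and it was 1550 with DESeq2, 1141 with no filter beyond 1 count, 359 with limma on log2(TPM + 0.1), 1415 with limma-voom weights for each cell type and 1481 with a replicate block. The listed genes called were 17, and 32 with DESeq2, 29 with cell-type weights and 29 with the replicate block. Of these, 9 other genes of antibody-secreting cells were higher in B1a with the replicate block. Relatives and partners called higher in B1a were 4 with DESeq2 and 4 with cell-type weights, against 2, and those called higher in B2 were 5, 4 and, with the replicate block, 6, against 2. With the replicate block, 1 member, Sdc1, was called higher in B2. Same-numbered libraries did not deviate together (correlation -0.035 over genes). With only 1 replicate difference in each cell type, this cannot show whether the numbers pair the samples. With a library left out, all called genes ranged from 539 to 6143, listed genes from 12 to 46, members called higher in B1a from 2 to 5 and members called higher in B2 from 0 to 2. All 693 genes called in the full data were also called by DESeq2, by the fit with no filter and without either B1a library, and 473 and 489 of them without B2 replicate 1 and B2 replicate 2. The cause of these changes was not tested. A fit with 1 B1a library estimates its spread from B2 alone, and a fit with 1 B2 library from B1a alone. The genes that were tested also differed between these fits. Ell2 and Slamf7 changed sign under limma on TPM and Ell2 also with upper quartile factors, never past the threshold.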
